A study of Mus musculus with 6 samples.

Results

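The genes that carry out apoptosis and the genes through which p53 acts were followed in the lungs of mouse pups that expressed human SRY. The members were all probes of a gene symbol that began with Bcl2 or with Casp and a digit, together with 25 further symbols named one by one, from Trp53 and Mdm2 to the sestrins, the GADD45 genes, Fas, Apaf1 and the IAP genes. This rule used names and no measured value, but the members were chosen with earlier results of these data known. It found 84 of the 25697 probes on the array, for 46 of 18138 gene symbols. Of these, 58 probes for 35 genes were detected on at least 3 of the 6 arrays (detection p under 0.05) and could be tested.

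Lung RNA of male FVB pups (FVB/N in the study's methods), taken on postnatal day 6, was hybridised to Illumina MouseRef-8 BeadChips, 1 array for each of 3 hSRY-ON and 3 hSRY-OFF pups. The comparison asked which transcripts differ in a lung in which human SRY, the gene that starts testis development, is switched on outside the gonad. The study reports that hSRY-ON pups grew more slowly than controls, suckled little and lacked milk in the stomach, and that the thymus was occasionally absent. Such differences in growth and feeding go with the group and cannot be told apart from the transgene here. Per the study's methods, the Signalox-hSRY transgene sits as a single copy at the H11 locus, and an actin-based CAG promoter drives FLAG-tagged hSRY and EGFP once Cre has cut out a DsRed2 segment. In hSRY-ON pups the Cre recombinase came with the egg of a Ddx4-Cre mother and acted in the single-cell embryo, and the pups used for the arrays did not carry Ddx4-Cre themselves. The name hSRY-OFF stands in the methods for the transgene without recombination, but the study also compares its mice with littermates that lack the transgene, so the genotype of the hSRY-OFF arrays rests on their label. All hSRY-ON pups come from 1 responder line, and the array holds no probe for human SRY, so the activity of the transgene was not read from these data.

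Apoptosis is run by caspases, proteases that lie dormant until an initiator caspase is activated. Death receptors such as Fas do this at the cell surface through caspase-8, and mitochondria do it through cytochrome c, APAF1 and caspase-9 once BAX and BAK have opened their outer membrane, a step that the survival members of the BCL2 family hold back and the BH3-only members promote. The transcription factor p53 feeds into both routes by raising the transcription of Fas, Bax, Bbc3 and Pmaip1, and it also induces genes of arrest, repair and metabolic restraint (Cdkn1a, the sestrins, Gadd45a) and its own inhibitor Mdm2. In the lung, apoptosis removes surplus interstitial cells as the alveolar walls thin after birth.

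The arrays passed a check of the tissue and differed in cell type markers. All 15 tested probes of 11 lung genes were detected on all arrays, and their summed level (log2 of the summed normalized intensities) was 17.22 to 17.29 in hSRY-OFF and 17.26 to 17.36 in hSRY-ON lungs. Of these probes 4 rose, namely Foxj1 of ciliated cells by 1.15, Sftpb of alveolar type II cells by 0.67 and 0.52 and Sftpd by 0.39, and Cldn5 of endothelial cells fell by 0.67 (log2; limma, adjusted p = 0.00647, 0.008, 0.0247, 0.0421 and 0.00947). The other 2 surfactant genes were not called and had opposite signs. Sftpc, also of alveolar type II cells, had -0.25 and Sftpa1 had 0.41 (limma, adjusted p = 0.15 and 0.268). All hSRY-ON values of Sftpc lay below all hSRY-OFF values. Other lists of markers also moved between the groups and are given beside the results they accompany. The RNA came from whole lung, so fewer cells of a type and less RNA per cell cannot be told apart in any value given here. Between 55 and 60 of the 84 member probes were detected per array.

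The transcript of p53 fell in hSRY-ON lungs, and some genes known to respond to p53 rose while others did not pass the threshold. Sesn1, Sesn2, Mdm2, Ccng1, Gadd45b, Gadd45g, Fas, the inflammatory caspases Casp1 and Casp4 and the IAP gene Birc2 were higher in hSRY-ON lungs. Trp53, Casp2 and Bcl2l12 were among the lower genes. Among the members, no probe of Bax, Bak1, the 6 BH3-only genes, the survival genes of the BCL2 family, Apaf1, Diablo, Casp8 or Casp9 passed the threshold. In numbers, 15 of the 58 tested probes (25.9%) passed the threshold of 0.05 on the adjusted p (two-sided limma test, with Benjamini-Hochberg adjustment across all 13841 tested probes), against 26.9% of all tested probes, so the share of members called was near that of the array as a whole. Higher calls came to 11 (19.0% of members, against 13.6% of all tested probes) and lower calls to 4 (6.9%, against 13.3%).

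The changes were modest in size. The median fitted change of the 58 probes was 0.12 on the log2 scale, with a range from -0.87 to 1.32, and that of all tested probes was -0.03. The median absolute change was 0.31 for members and 0.32 for all. A change of at least 2-fold was called for 3 members (5.17%), those of Sesn1, Sesn2 and Casp4, against 9.7% of all tested probes. In 24 members no hSRY-ON value fell within the range of hSRY-OFF (41.4%, against 46.6% of all). In 17 of them all hSRY-ON arrays lay above hSRY-OFF (29.3%, against 22.4%) and in 7 below (12.1%, against 24.1%). The spread between replicates was larger in hSRY-ON for 39 members (67.2%, against 73.6% of all tested probes).

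**Figure D1:**
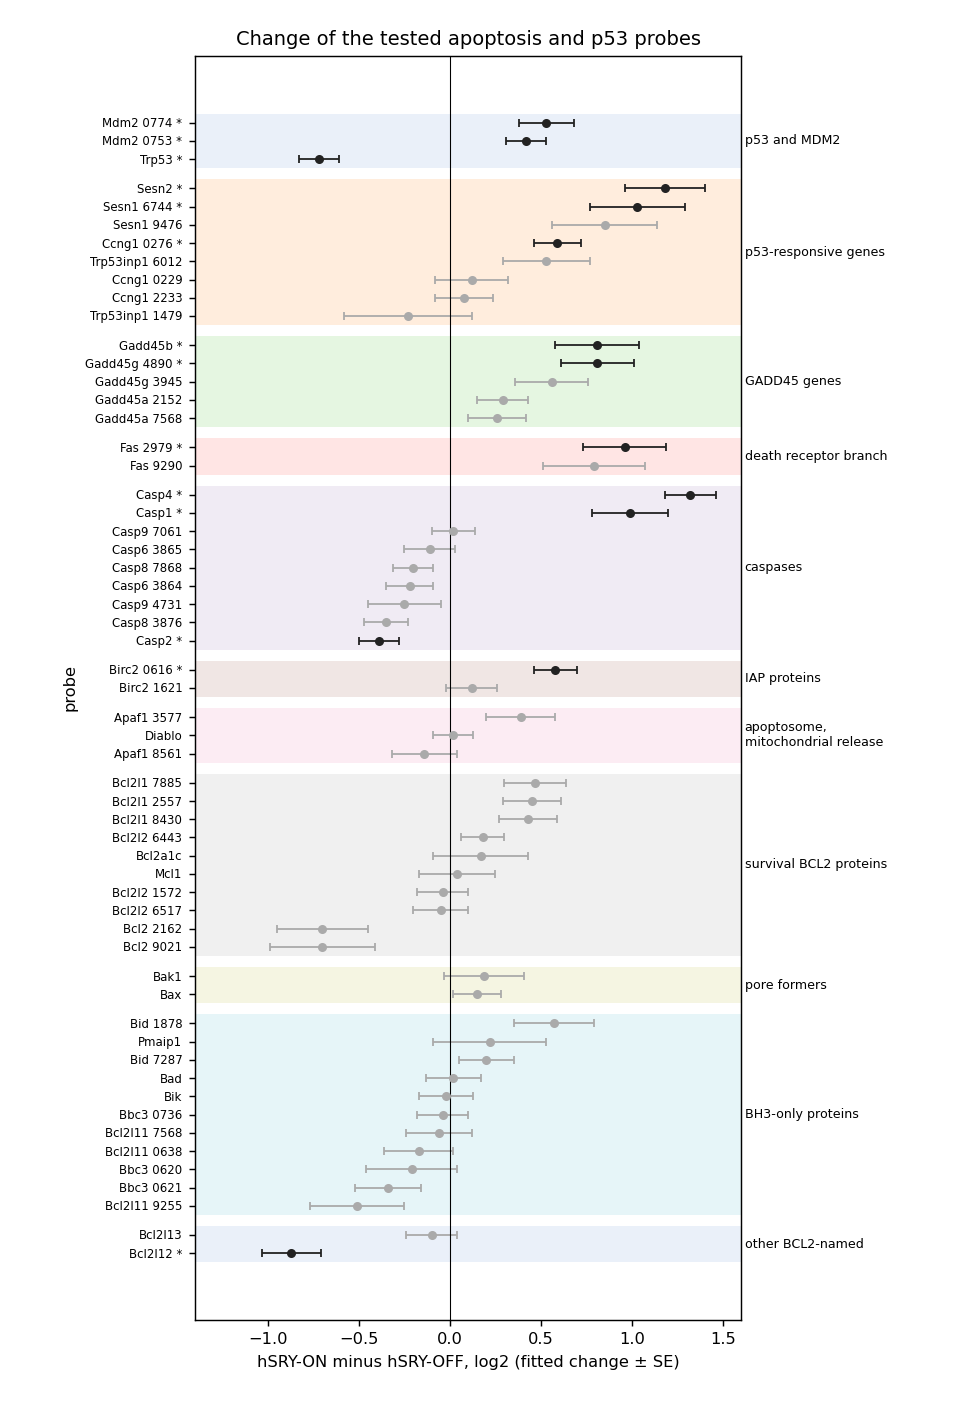
Fitted change of 57 of the 58 tested probes (hSRY-ON minus hSRY-OFF, log2, points) with its standard error (bars), grouped by role; black points and asterisks mark an adjusted p under 0.05, and numbers after a symbol are the last digits of the probe. The called rises lie among MDM2, the p53-responsive genes, the GADD45 genes, Fas, the inflammatory caspases and Birc2, up to 1.32 for Casp4, and the called falls shown are Trp53, Casp2 and Bcl2l12, down to -0.87.

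Trp53 encodes p53. Its probe (ILMN_2466845) read 10.92, 11 and 10.85 in hSRY-OFF replicates 1 to 3 and 10.14, 10.21 and 10.26 in hSRY-ON replicates 1 to 3, as normalized log2 intensities. Every hSRY-ON lung lay below every hSRY-OFF lung, and the deposited intensities before any normalization were also apart, at 1988 to 2290 in hSRY-OFF and 1127 to 1445 in hSRY-ON. The mean fell from 10.93 ± 0.07 (SD, n = 3) to 10.20 ± 0.06 (SD, n = 3), a change of -0.72 (SE 0.11), which is 1.65-fold lower (limma, adjusted p = 0.00553). The call was made in all 17 alternative analyses, with changes from -0.76 to -0.65. The transcripts of cycling cells moved the same way. Of 12 tested probes of that list, 11 fell, and its summed level was 13.29 to 13.65 in hSRY-OFF and 11.73 to 12.73 in hSRY-ON, with Bub1 and Ccna2 not detected on any array. Whether this played a part in the value of Trp53 was not tested.

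Mdm2 encodes the ubiquitin ligase that marks p53 for destruction, and its gene is a classical target of p53. The probe ILMN_2850753 read 10.78, 10.82 and 10.88 in hSRY-OFF and 11.16, 11.36 and 11.22 in hSRY-ON lungs. The probe ILMN_1250774 read 10.65, 10.73 and 10.87 in hSRY-OFF and 11.01, 11.34 and 11.49 in hSRY-ON lungs. On both probes the groups stood apart without overlap, in the direction opposite to Trp53. The rises were 0.42 (SE 0.11; limma, adjusted p = 0.0365) and 0.53 (SE 0.15; limma, adjusted p = 0.0424). Both were close to the threshold. Each call was lost without hSRY-OFF replicate 1, 2 or 3 or hSRY-ON replicate 2 or 3, with changes of 0.36 to 0.44 and 0.43 to 0.59 and adjusted p of 0.0512 to 0.135 and 0.0781 to 0.145 (limma) and under median scaling (adjusted p = 0.0593 and 0.0568), and that of ILMN_1250774 also without the detection filter (adjusted p = 0.0544). Another Mdm2 probe was not detected on any array.

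The promoters of these genes were read to show where the letters bound by p53 occur. The p53 half-site, the 10-base motif of which p53 binds a pair, was searched by its consensus on both strands from 250 bases before to 50 bases after each start site in the RefSeq promoter table (GRCm38.p6). It occurred in 8.36% of 32851 promoters and in at least 1 promoter of 9.55% of 27025 genes. Of the 46 members, 40 had an entry. The half-site occurred in 7 of them, namely Mdm2, Ccng1, Sesn1, Birc2, Trp53, Gadd45a and Bax, in 1 of 2 promoters for Sesn1 and Birc2. By result these were 4 of the 10 genes with a higher call, 1 of the 3 lower genes with an entry and 2 of the 18 genes that were tested and not called. The motif AACAAT, which SRY and SOX proteins bind, occurred in 10.7% of all promoters and 12.2% of genes, and among members in those of Birc2, Bbc3, Bcl2l11 and Birc4. A match is a description of letters and does not show that a protein binds there. Pairs of half-sites and sequence outside this stretch were not searched, so a gene without a match was not shown to lack a p53 site.

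Stretches of 120 bases around the half-site are printed for 4 members and for Cdkn1a, whose product p21 is the best known output of p53, so that the motif can be read beside the values. They are given 5′ to 3′ along the gene's strand, with the half-site in capitals, and lie upstream of an annotated start of transcription. Only starts whose promoter held a match are shown, and a gene can have other annotated starts, as Sesn1 does. They come from chr10:117710880-117710999 on the minus strand, where the match begins 186 bases before the start of Mdm2, from chr11:40755407-40755526 on the minus strand, 185 bases before that of Ccng1, from chr10:41887211-41887330 on the plus strand, 173 bases before that of Sesn1, from chr11:69580229-69580348 on the plus strand, 75 bases before that of Trp53, and from chr17:29090851-29090970 on the plus strand, with matches 73 and 51 bases before that of Cdkn1a.
Mdm2: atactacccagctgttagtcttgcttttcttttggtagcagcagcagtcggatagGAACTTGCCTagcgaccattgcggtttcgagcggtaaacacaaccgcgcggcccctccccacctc
Ccng1: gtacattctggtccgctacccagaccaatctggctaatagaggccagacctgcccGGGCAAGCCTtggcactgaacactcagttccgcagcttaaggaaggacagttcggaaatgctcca
Sesn1: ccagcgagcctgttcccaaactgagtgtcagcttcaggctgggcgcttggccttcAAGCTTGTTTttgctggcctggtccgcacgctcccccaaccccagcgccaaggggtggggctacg
Trp53: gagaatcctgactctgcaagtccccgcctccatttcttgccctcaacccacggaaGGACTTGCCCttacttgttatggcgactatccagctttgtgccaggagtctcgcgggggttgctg
Cdkn1a: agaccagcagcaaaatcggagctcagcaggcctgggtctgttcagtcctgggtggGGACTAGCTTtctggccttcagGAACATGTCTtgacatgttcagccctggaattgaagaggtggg

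The list named p53-responsive genes held only the sestrins, Ccng1 and Trp53inp1. Other p53 targets among the members were grouped by other roles. Of these, Mdm2 and Fas had called rises, while Bax, Bbc3, Pmaip1 and Gadd45a did not pass the threshold. Of the 8 tested probes of the list 3 rose and none fell, against 13.6% higher and 13.3% lower over all tested probes. The median change of the list was 0.56, against -0.03 over all tested probes. Sesn2, a stress-induced restraint on mTORC1 signalling, read 6.07, 5.93 and 5.84 in hSRY-OFF and 6.89, 7.62 and 6.88 in hSRY-ON lungs (ILMN_2948945). All hSRY-ON values lay above all hSRY-OFF values, with hSRY-ON replicate 2 the highest. The change was 1.18 (SE 0.22), or 2.26-fold (limma, adjusted p = 0.00959), and the call was made in all 17 alternatives. Its size depended on the background, since without background correction it was 0.45. The second Sesn2 probe was detected on 1 array and was not tested.

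Sesn1, a further sestrin, whose promoter holds a half-site, had positive changes on both of its probes. ILMN_3136744 read 10.33, 10.44 and 10.54 in hSRY-OFF and 11.10, 12.08 and 11.21 in hSRY-ON lungs, a change of 1.03 (SE 0.26), or 2.04-fold (limma, adjusted p = 0.0271). ILMN_3059476 read 7.23, 7.47 and 6.96 against 7.75, 8.73 and 7.74, a change of 0.85 (SE 0.29) that did not pass the threshold (limma, adjusted p = 0.0671). On both probes the groups did not overlap and hSRY-ON replicate 2 was the highest array, as it was for Sesn2. Without that array the change of ILMN_3136744 was 0.71 and still called, while its call was lost without hSRY-OFF replicate 1, 2 or 3 (changes of 0.98 to 1.08; limma, adjusted p = 0.066 to 0.0925). ILMN_3059476 passed the threshold without hSRY-ON replicate 1 (1.02; limma, adjusted p = 0.0491).

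Ccng1, which encodes cyclin G1, a partner of the phosphatase PP2A in the MDM2 loop, rose on 1 of 3 probes. ILMN_2500276 read 10.40, 10.20 and 10.37 in hSRY-OFF and 10.82, 11.07 and 10.85 in hSRY-ON lungs, a change of 0.59 (SE 0.13), or 1.5-fold (limma, adjusted p = 0.0162). The other 2 probes had changes of 0.08 and 0.12 with overlapping groups (limma, adjusted p = 0.738 and 0.691), so the probes of this gene disagreed. The call was lost without hSRY-OFF replicate 1 or 2, with changes of 0.53 to 0.63 (limma, adjusted p = 0.0533 to 0.0731). Trp53inp1, a p53-induced nuclear protein, had probes of opposite sign, 0.53 and -0.23 (limma, adjusted p = 0.138 and 0.662). Without hSRY-ON replicate 1 the first probe passed the threshold at 0.75 (limma, adjusted p = 0.0297). The second, ILMN_2971479, lay near background, detected on 2 hSRY-OFF arrays and, in hSRY-ON, only on replicate 1. It was called lower without that replicate (limma, adjusted p = 0.0217), but no hSRY-ON array then detected it, so no size is given.

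The GADD45 genes encode small stress sensors of growth arrest and DNA damage. All 5 tested probes had positive changes, with a median of 0.56, and 2 passed the threshold, against 26.9% of all tested probes. Gadd45b read 8.92, 8.23 and 8.62 in hSRY-OFF and 9.78, 9.31 and 9.10 in hSRY-ON lungs, a change of 0.81 (SE 0.23; limma, adjusted p = 0.0428). Gadd45g read 8.93, 8.21 and 8.44 against 9.25, 9.47 and 9.31 on ILMN_2744890, a change of 0.81 (SE 0.20; limma, adjusted p = 0.0232). Its second probe changed by 0.56 with overlapping groups (limma, adjusted p = 0.0747). It passed the threshold in 3 alternatives (changes of 0.52 to 0.63, limma, adjusted p = 0.0387 to 0.0448). These were median scaling, no background correction and a variance trend with robust estimation. On all of these probes hSRY-OFF replicate 2 was the lowest array. Gadd45a, the member of the family most closely tied to p53, had changes of 0.29 and 0.26, with overlapping groups (limma, adjusted p = 0.171 and 0.269).

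The calls of Gadd45b and Gadd45g rested on the full set of arrays. Without hSRY-OFF replicate 2 or 3 or hSRY-ON replicate 2 the Gadd45g call was lost (changes of 0.66 to 0.77; limma, adjusted p = 0.0718 to 0.0781). The Gadd45b call was lost without any array but hSRY-ON replicate 3 (changes of 0.62 to 0.98; limma, adjusted p = 0.0528 to 0.134), without a detection filter (adjusted p = 0.0646) and when arrays were weighted (adjusted p = 0.0604).

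**Figure D2:**
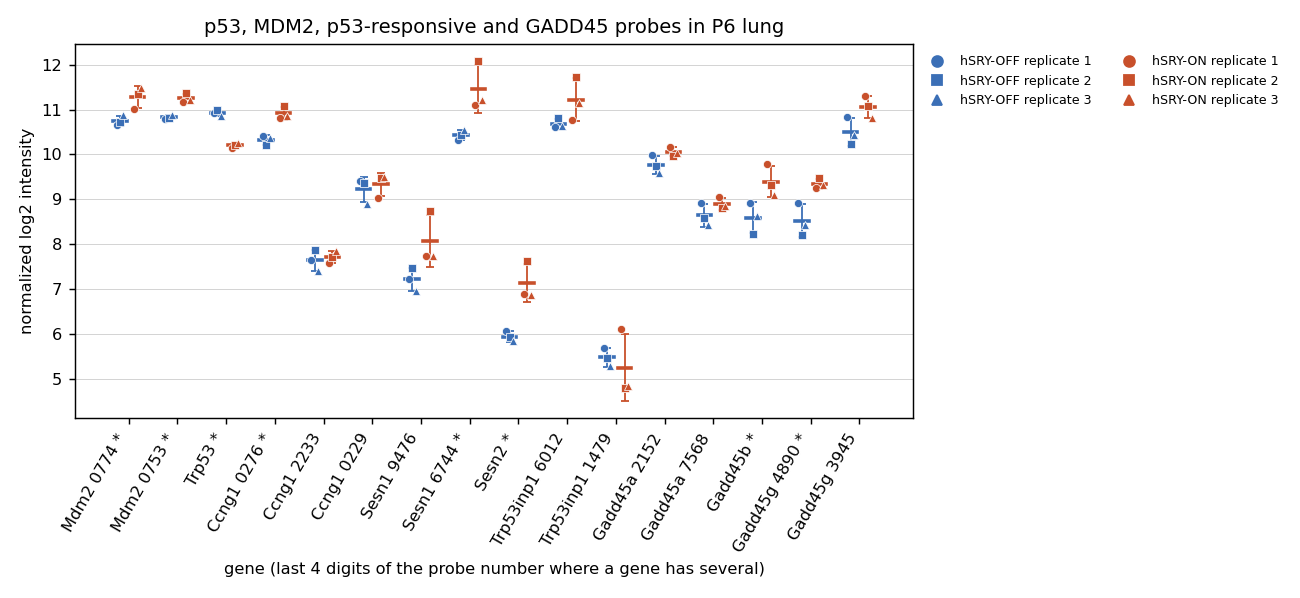
Normalized log2 intensity of the 16 tested probes of Trp53, Mdm2, the p53-responsive genes and the GADD45 genes on each array (symbols by replicate, blue hSRY-OFF, red hSRY-ON), with the group mean (horizontal bar) and SD (vertical bar, n = 3); asterisks mark an adjusted p under 0.05. The hSRY-ON arrays lie below the hSRY-OFF arrays for Trp53 (10.14 to 10.26 against 10.85 to 11) and above them for both Mdm2 and both Sesn1 probes and for Sesn2.

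On the death receptor route, Fas rose, while its inhibitor Cflar could not be measured. Fas is the receptor through which Fas ligand triggers apoptosis and is a p53 target. ILMN_2902979 read 9.95, 10.07 and 9.99 in hSRY-OFF and 11.46, 10.91 and 10.54 in hSRY-ON lungs. The 3 hSRY-OFF arrays lay within 0.12 of each other, and all hSRY-ON arrays lay above them and were spread over a wider range, with replicate 1 the highest. The change was 0.96 (SE 0.23), or 1.95-fold (limma, adjusted p = 0.0215). The second probe read 8.66, 8.86 and 8.81 against 10.24, 9.27 and 9.19, also without overlap, a change of 0.79 (SE 0.28; limma, adjusted p = 0.0739). The call of ILMN_2902979 was lost without hSRY-OFF replicate 1, 2 or 3 or hSRY-ON replicate 2 (changes of 0.94 to 1.0; limma, adjusted p = 0.0566 to 0.0776). The second probe passed the threshold without hSRY-ON replicate 1 (0.45; limma, adjusted p = 0.0369) or replicate 3 (0.97; limma, adjusted p = 0.0489), so the size of its change rested on hSRY-ON replicate 1. Another Fas probe and both probes of Cflar, which encodes the caspase-8 inhibitor c-FLIP, were not detected on any array.

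The caspases described here moved in different directions. The 2 inflammatory caspases rose, the initiator Casp2 fell, and Casp6, Casp8 and Casp9 did not pass the threshold. Casp4, the mouse gene for caspase-11, which senses bacterial lipopolysaccharide inside cells and opens pyroptotic pores, had the largest change among the members. ILMN_2811737 read 6.88, 7.06 and 7.19 in hSRY-OFF and 8.43, 8.20 and 8.47 in hSRY-ON lungs, a change of 1.32 (SE 0.14), or 2.5-fold (limma, adjusted p = 0.00166). The groups were far apart relative to their spread, with an SD of 0.15 in each. The call was made in all 17 alternatives, with 0.76 as the smallest change, without background correction. The other 2 Casp4 probes were detected on at most 2 arrays and were not tested.

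Casp1, the protease that matures interleukin-1 beta, read 9.02, 8.82 and 9.20 in hSRY-OFF and 9.63, 10.36 and 10.02 in hSRY-ON lungs. All hSRY-ON arrays were above all hSRY-OFF arrays, and the change was 0.99 (SE 0.21), or 1.98-fold (limma, adjusted p = 0.0146). The call was lost without hSRY-OFF replicate 1 or 2 (changes of 0.89 to 1.0, limma, adjusted p = 0.0544 to 0.0616). Macrophages and neutrophils express both of these caspases, and some markers of both cell types were higher in the same lungs. Of 9 tested macrophage probes 4 rose (Marco, Cd14, Mrc1 and Cd68) and none fell. The tested probes of Csf1r and Adgre1 (Emr1 on the array) did not pass the threshold, with changes from -0.26 to 0.41. The summed level of the list was 11.74 to 11.88 in hSRY-OFF and 12.68 to 13.46 in hSRY-ON, with Itgax and Msr1 not detected. Of 6 tested neutrophil probes 4 rose (Lcn2, Ltf, S100a8 and S100a9) and none fell, with summed levels of 12.93 to 12.98 and 13.93 to 15.42. Camp and Ngp were not called (limma, adjusted p = 0.378 and 0.451), and in both hSRY-ON replicate 1 lay below all hSRY-OFF arrays. The part of these cell types in the rise of Casp1 and Casp4 was not tested.

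Casp6, an executioner caspase, had changes of -0.22 and -0.11 (limma, adjusted p = 0.239 and 0.605). Casp2, an initiator activated by the p53-induced PIDD1, read 11.85, 11.65 and 11.70 in hSRY-OFF and 11.37, 11.33 and 11.32 in hSRY-ON lungs. The groups did not overlap, but the change was small, -0.39 (SE 0.11, limma, adjusted p = 0.0419). The call was lost without any array but hSRY-ON replicate 1 (changes of -0.43 to -0.33, limma, adjusted p = 0.0697 to 0.165), and under cyclic loess (adjusted p = 0.0539), median scaling (0.141) and array weights (0.0516).

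The initiators of the 2 classical routes did not pass the threshold. Casp8, the initiator at death receptors, had changes of -0.35 and -0.20 on its 2 probes (limma, adjusted p = 0.0772 and 0.21). Its hSRY-ON values were below all hSRY-OFF values on both, at 9.61 to 9.78 against 9.90 to 10.15 and at 9.60 to 9.68 against 9.79 to 9.90. The probe with the larger change was called lower without background correction (-0.30, limma, adjusted p = 0.0352). Casp9, the initiator at the apoptosome, had changes of 0.02 and -0.25 with overlapping groups (limma, adjusted p = 0.926 and 0.381). Apaf1, the scaffold of the apoptosome, had 0.39 and -0.14 (limma, adjusted p = 0.162 and 0.588), and Diablo, released by mitochondria to relieve the IAP block, had 0.02 (limma, adjusted p = 0.91).

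Of the IAP genes, whose products bind caspases or ubiquitinate signalling partners of TNF receptors, Birc2 was the only one among the members with tested probes, and Birc5 is given with the wider pathway. Birc2 (cIAP1) read 10.50, 10.47 and 10.57 in hSRY-OFF and 11.08, 11.25 and 10.96 in hSRY-ON lungs on ILMN_2990616, a change of 0.58 (SE 0.12), or 1.5-fold (limma, adjusted p = 0.0154). The groups stood apart on this probe. On ILMN_2741621 they overlapped, with a change of 0.12 (limma, adjusted p = 0.552), so the 2 probes disagreed in size. The call was lost without hSRY-OFF replicate 1 or 2 (changes of 0.56 to 0.58; limma, adjusted p = 0.0661 to 0.0685). Birc3 and Birc6 were not detected on any array, and Birc4, the array's name for Xiap, was detected on at most 2.

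**Figure D3:**
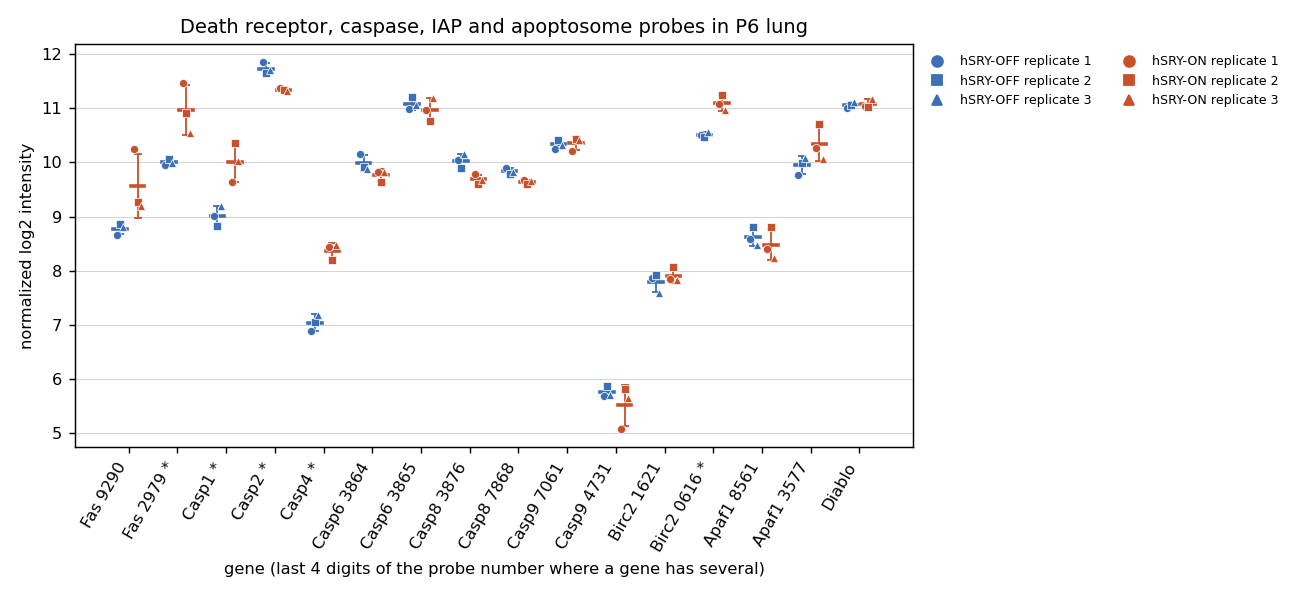
Normalized log2 intensity of 16 tested probes of Fas, caspases, Birc2, Apaf1 and Diablo on each array (symbols by replicate, blue hSRY-OFF, red hSRY-ON), with the group mean (horizontal bar) and SD (vertical bar, n = 3); asterisks mark an adjusted p under 0.05. Casp4 shows the widest gap between the groups, 6.88 to 7.19 against 8.20 to 8.47, and the symbols of Casp9, Apaf1 and Diablo overlap.

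The BCL2 family decides whether mitochondria release cytochrome c, and of the 23 tested probes of its survival, pore-forming and BH3-only genes among the members none passed the threshold, against 26.9% of all tested probes (limma). Bok and Bmf, relatives outside the members, had called probes and are given with the wider pathway. Both pore formers were detected on all arrays. Bax read 10.27, 10.28 and 10.46 in hSRY-OFF and 10.50, 10.62 and 10.35 in hSRY-ON lungs, a change of 0.15 (SE 0.13; limma, adjusted p = 0.404). Bak1 read 7.21, 7.16 and 7.36 against 6.93, 7.62 and 7.74, a change of 0.19 (SE 0.22; limma, adjusted p = 0.557). The groups overlapped in both genes. Without hSRY-ON replicate 1, the array at the bottom of the range, the change of Bak1 was 0.44 and passed the threshold (limma, adjusted p = 0.0427).

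Among the survival members, Bcl2 and Bcl2l1 leaned in opposite directions, and neither passed the threshold. Bcl2 read 6.89, 7.66 and 7.69 in hSRY-OFF and 6.91, 6.40 and 6.80 in hSRY-ON lungs on ILMN_2682162 (-0.70, SE 0.25; limma, adjusted p = 0.0769). On ILMN_1249021 it read 6.17, 6.46 and 5.98 against 6.17, 5.29 and 5.06 (-0.70, SE 0.29; limma, adjusted p = 0.119), and this probe was detected on 1 hSRY-ON array. The groups overlapped on both probes, through hSRY-OFF replicate 1 on the first and hSRY-ON replicate 1 on the second. Without that array each probe passed the threshold. The change of ILMN_2682162 was -0.97 without hSRY-OFF replicate 1 (limma, adjusted p = 0.0318). ILMN_1249021 was called lower without hSRY-ON replicate 1 (limma, adjusted p = 0.00935), the only hSRY-ON array that detected it, so no size is given for that fit.

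Bcl2l1, the gene of BCL-XL, had 3 probes with nearly equal positive changes of 0.47, 0.43 and 0.45 (SE 0.16 to 0.17; limma, adjusted p = 0.0865, 0.0828 and 0.0798). On all 3 probes the hSRY-ON values lay above the hSRY-OFF values, at 8.0 to 8.32 against 7.45 to 7.97, 9.61 to 9.99 against 9.14 to 9.53, and 7.62 to 8.17 against 7.34 to 7.52. The probes read the same RNA samples and are not independent replicates. ILMN_2742557 passed the threshold without hSRY-ON replicate 1 (0.59; limma, adjusted p = 0.0271). Mcl1, a short-lived survival protein, had a change of 0.04 (limma, adjusted p = 0.911). The 3 probes of Bcl2l2 (BCL-W) ran from -0.05 to 0.18. Bcl2a1c had a change of 0.17, and its value is uncertain because the Bcl2a1 copies are nearly identical in sequence.

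The BH3-only members are the family's sensors of damage and lost growth signals. Their 11 tested probes ranged from -0.51 to 0.57 with a median of -0.04. The p53 targets Bbc3 (PUMA) and Pmaip1 (NOXA) had changes of -0.21, -0.34 and -0.04 and of 0.22 (limma, adjusted p from 0.208 to 0.84), with overlapping groups. Bid, which caspase-8 cleaves to link both routes, read 7.46, 7.57 and 7.81 in hSRY-OFF and 7.73, 8.36 and 8.47 in hSRY-ON lungs on ILMN_3161878, a change of 0.57 (SE 0.22; limma, adjusted p = 0.0908) that was 0.80 and passed the threshold without hSRY-ON replicate 1 (limma, adjusted p = 0.0113). The other Bid probe had 0.20. Bad and Bik had 0.02 and -0.02, and the 3 tested probes of Bcl2l11 (BIM) had -0.51, -0.17 and -0.06. The first of these, ILMN_1229255, was detected on 1 hSRY-ON array, replicate 3. It was called lower without that replicate (limma, adjusted p = 0.0157), but no hSRY-ON array then detected it, so no size is given for that fit.

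Bcl2l12, a more distant protein with a BCL2 homology region, was the exception among the genes named for BCL2. It read 8.28, 8.18 and 8.27 in hSRY-OFF and 7.13, 7.34 and 7.66 in hSRY-ON lungs, with no overlap. The change was -0.87 (SE 0.16), or 1.82-fold lower (limma, adjusted p = 0.00895), and the call was made in all 17 alternatives, at -0.51 without background correction. Bcl2l13 had a change of -0.10 (limma, adjusted p = 0.625).

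**Figure D4:**
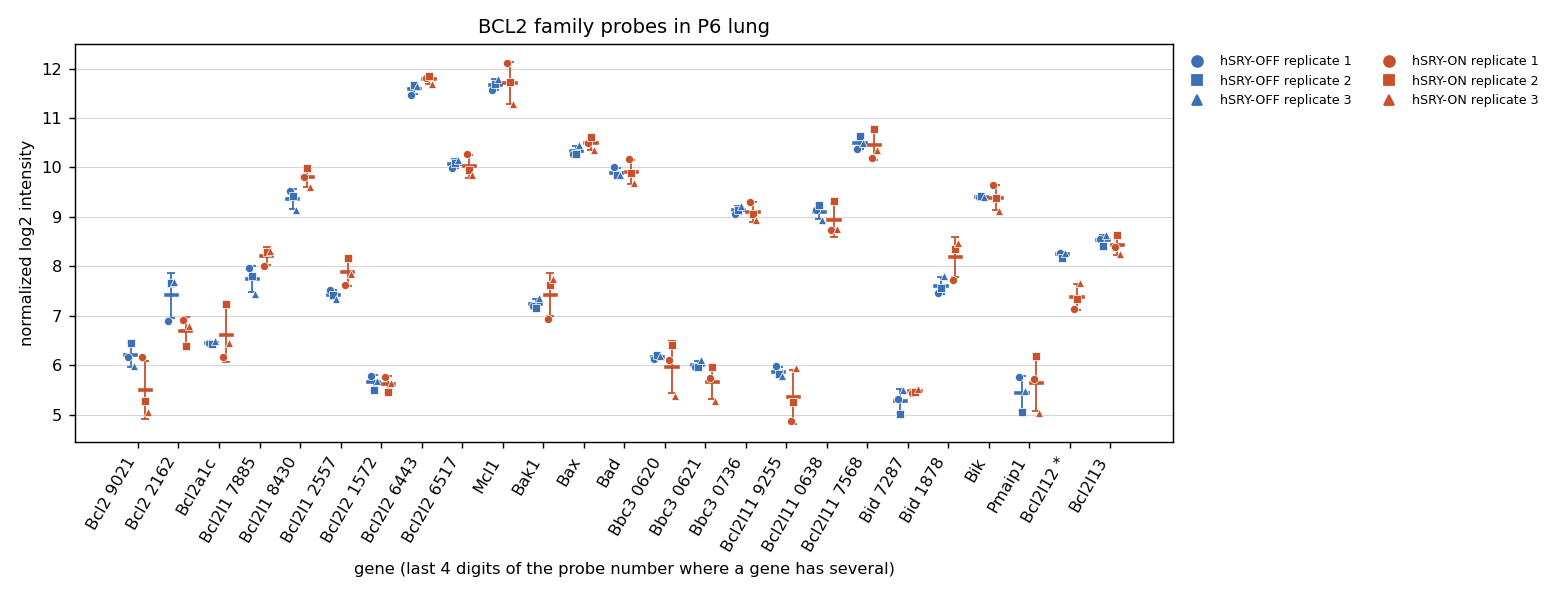
Normalized log2 intensity of the 25 tested probes of genes of the BCL2 family on each array (symbols by replicate, blue hSRY-OFF, red hSRY-ON), with the group mean (horizontal bar) and SD (vertical bar, n = 3); the asterisk marks an adjusted p under 0.05. Only Bcl2l12 carries it (7.13 to 7.66 in hSRY-ON against 8.18 to 8.28), the 3 Bcl2l1 probes are higher in hSRY-ON without overlap, and the symbols of Bax, Bad, Bik and Mcl1 overlap.

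For 11 member genes no probe passed the detection filter, and nothing can be said of their change. They included Bcl2a1d, Bcl2l10, Bcl2l14, Birc3, Birc4, Birc6, Casp12, Casp14, Casp8ap2 and Cflar. None of their probes was detected on more than 2 arrays. Of the 18 genes with several tested probes, 14 had all probes of one sign, and the others were Apaf1, Bcl2l2, Casp9 and Trp53inp1. The threshold cut through genes with similar sizes of change. Just inside it lay Casp2, Mdm2 ILMN_1250774 and Gadd45b (adjusted p = 0.0419, 0.0424 and 0.0428, limma) and just outside it the second probes of Sesn1, Fas and Gadd45g (0.0671, 0.0739 and 0.0747).

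The arrays that entered decided how many members were called. In place of 15, the count was 7, 5 and 8 without hSRY-OFF replicate 1, 2 and 3 and 22, 9 and 14 without hSRY-ON replicate 1, 2 and 3. The count over all tested probes moved with it, from 1652 without hSRY-OFF replicate 1 to 4442 without hSRY-ON replicate 1, against 3728 with all arrays. Trp53, Sesn2, Casp4 and Bcl2l12 were called each time. No called probe changed sign.

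**Figure D5:**
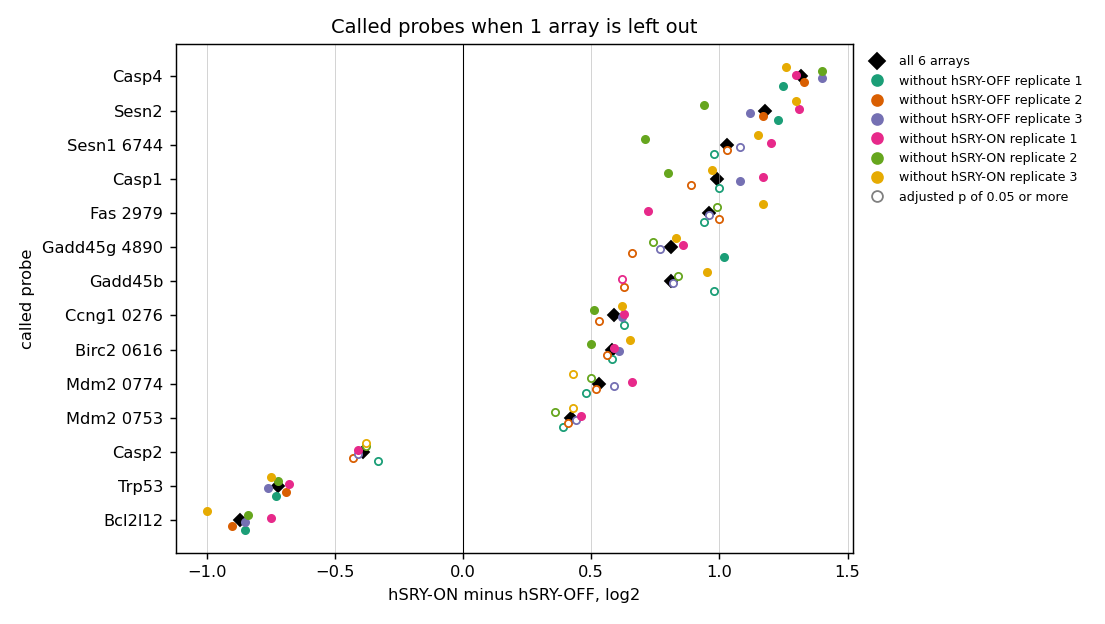
Change of 14 of the 15 called probes (hSRY-ON minus hSRY-OFF, log2) with all 6 arrays (black diamonds) and with 1 array left out (coloured circles, open where the adjusted p was 0.05 or more). All symbols of a probe stay on one side of 0, the circles of Trp53, Sesn2, Casp4 and Bcl2l12 are all filled, and Sesn2 and Sesn1 move furthest without hSRY-ON replicate 2, to 0.94 and 0.71.

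The wider pathway, given by lists of further genes, reached larger changes, from -1.80 to 1.54. Of 56 tested probes 21 were called (37.5%, against 26.9% of all tested probes). Among 22 probes of other p53 target genes 5 rose and 3 fell, where 13.6% of all tested probes rose and 13.3% fell. Cdkn1a, the cell cycle inhibitor p21, rose on all of its 3 tested probes, by 1.41, 1.54 and 1.41 (limma, adjusted p = 0.00921, 0.0131 and 0.0156). On ILMN_2846775 it read 8.37, 8.34 and 8.46 in hSRY-OFF and 9.80, 10.33 and 9.26 in hSRY-ON lungs, and this call held without any one array. The other 2 calls were lost without hSRY-OFF replicate 1 (1.45, adjusted p = 0.0536, for ILMN_2846776), and in the case of ILMN_2634083 also without hSRY-OFF replicate 2 (1.39 to 1.41, adjusted p = 0.0564 to 0.0587, limma).

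The other p53 targets moved in both directions. Ephx1, a detoxifying epoxide hydrolase, rose by 0.87 (limma, adjusted p = 0.00384), and Plk2, a polo-like kinase, fell from 9.87 ± 0.14 (SD, n = 3) to 8.08 ± 0.61 (SD, n = 3), a change of -1.80 (limma, adjusted p = 0.00644). The remaining calls of the list, named after their values were seen, were a fall of 1.31 in Tnfrsf10b, the TRAIL receptor, a rise of 0.52 on 1 Ddb2 probe and a change of -0.45 in Ei24 (limma, adjusted p = 0.00812, 0.0217 and 0.0355). Ddb2 was no longer called without hSRY-OFF replicate 1, 2 or 3 or hSRY-ON replicate 2 (0.43 to 0.57, adjusted p = 0.0553 to 0.0916), nor Ei24 without any array but hSRY-ON replicate 3 (-0.48 to -0.39, adjusted p = 0.0572 to 0.125). Without background correction the Ddb2 change was 0.29, and under median scaling neither was called (limma, adjusted p = 0.0565 and 0.086). Without hSRY-ON replicate 3 a second Ddb2 probe was called too (0.55; limma, adjusted p = 0.0209). Aen, Btg2 and Perp were not detected on any array.

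Of 8 tested probes of p53 regulators and relatives none rose and 2 fell, a share near the 26.9% called over all tested probes. Both belonged to Trp53bp1, a double-strand break repair protein that binds p53, with changes of -1.10 and -0.47 (limma, adjusted p = 0.00711 and 0.0285). The first, detected on 1 hSRY-ON array, was -0.31 without background correction and -0.69 with an offset of 50, and still called. The second was lost without hSRY-OFF replicate 1, 2 or 3 or hSRY-ON replicate 2 (-0.51 to -0.41, adjusted p = 0.0741 to 0.0997) and under median scaling (adjusted p = 0.0546). Mdm4, the MDM2 relative that masks p53, had a change of -0.58 and was detected on all hSRY-OFF arrays and on 1 hSRY-ON array (limma, adjusted p = 0.0824). It passed the threshold without hSRY-ON replicate 2 (limma, adjusted p = 0.0434). That was its brightest hSRY-ON array, at 5.61 against 5.05 and 5.07, so no size is given for that fit.

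Of 12 tested probes of death receptors, ligands and adaptors 1 rose and 3 fell, against 13.6% and 13.3% of all tested probes. All the falls were of 1 gene, Fadd, the adaptor that carries caspase-8 to Fas. Its brightest called probe, ILMN_2662509, read 9.63, 9.56 and 9.57 in hSRY-OFF and 8.95, 8.93 and 9.04 in hSRY-ON lungs, a change of -0.61 (SE 0.11; limma, adjusted p = 0.00832). ILMN_1223126 changed by -0.52 (limma, adjusted p = 0.027), a call lost without hSRY-OFF replicate 1, 2 or 3 or hSRY-ON replicate 2 (-0.55 to -0.48, adjusted p = 0.0697 to 0.0915) and under median scaling (adjusted p = 0.0524). ILMN_2874409 was not detected on any hSRY-ON array and was at least 1.07-fold lower there (limma, adjusted p = 0.00904, and 0.0683 without background correction). The fourth probe was called only without hSRY-ON replicate 1 (-0.77; limma, adjusted p = 0.0149). Fas and Fadd, which act in one complex, thus had calls of opposite sign. Traf1, an adaptor of TNF receptors that is induced by NF-kB, rose by 1.31 (limma, adjusted p = 0.016), a call lost without hSRY-OFF replicate 1 or 2 (1.10 to 1.34, adjusted p = 0.055 to 0.0555).

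Of 14 tested probes of mitochondrial and execution genes 1 rose and 6 fell, against 13.6% and 13.3% of all tested probes, and 5 of the falls were of Parp1 and Bok. Parp1, a DNA damage sensor that executioner caspases cleave, fell on all of its 3 tested probes, by 0.77, 0.79 and 0.72 (limma, adjusted p = 0.00829, 0.00888 and 0.0327). The third call was lost without any array but hSRY-OFF replicate 3 (-0.76 to -0.52, adjusted p = 0.0548 to 0.0922) and without background correction (-0.23, adjusted p = 0.0834), and the others held each time. Bok, a BCL2 relative that can permeabilise mitochondria, had changes of -0.75 and -0.79 (limma, adjusted p = 0.0147 and 0.0256), lost without hSRY-OFF replicate 1 or 3 (-0.71 to -0.69, adjusted p = 0.056 to 0.0641) and without hSRY-OFF replicate 1, 2 or 3 (-0.84 to -0.74, adjusted p = 0.0713 to 0.0932), the latter also without background correction (-0.22, adjusted p = 0.0667).

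The last calls of that list, named after their values were seen, were of Bmf and Birc5. Bmf, a BH3-only gene, rose by 0.81 (limma, adjusted p = 0.0186), a call lost without hSRY-OFF replicate 1, 2 or 3 (0.76 to 0.88, adjusted p = 0.0526 to 0.0762). Birc5 (survivin), which serves in mitosis, had a change of -1.46 on 1 of 3 probes (limma, adjusted p = 0.0297), lost without any array but hSRY-ON replicate 3 (-1.59 to -1.20, adjusted p = 0.0601 to 0.102). Without hSRY-ON replicate 3 all its probes were called, the other 2 with changes of -1.33 and -1.62 (limma, adjusted p = 0.00538 and 0.00438). The fall of the cycling cell list given above accompanied these values too, and its part in them was not tested.

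Further marker lists moved with the groups. Of 5 tested probes of the thymocyte list 4 fell (Cd8b1, Cd3e, Lck and Cd3g). The summed levels were 10.37 to 10.56 in hSRY-OFF and 8.38 to 9.81 in hSRY-ON. Ptcra had a change of -0.26 with overlapping groups (limma, adjusted p = 0.451), and Cd4, Cd8a, Dntt and Rag1 were not detected on any array. These values do not tell thymocytes from other T cells. Bcl2, Fas and Casp8 are expressed in T cells, and whether the cells marked by this list had a part in their values was not tested. The cardiac muscle list was 12.59 to 12.97 against 11.03 to 11.75, through a fall of 1 of its 5 tested probes (Myl4). The B cell list was 9.45 to 10.02 against 9.27 to 9.77 with 1 of 5 probes lower, and no erythroid probe was called.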

How the data were processed

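Total RNA from 6 lungs was amplified to biotin-labelled cRNA and hybridised, and the authors deposited 1 table of unnormalized bead intensities with a detection p-value for each probe and array. The software that summarised the beads is not given in the sources used here. The authors name TCC, a count method, in their methods, and the submitters' processing notes list limma. Because the deposited values are intensities, limma 3.58.1 in R 4.3.3 was used. The deposited detection p-value gives the share of negative controls brighter than a probe, from which the background was estimated (normexp). With an offset of 16 added, arrays were brought to one distribution by quantile normalization and put on the log2 scale, so changes of dim probes are understated. The filter required 3 or more of the 6 arrays to detect a probe (detection p under 0.05), which 13841 of 25697 did. Array medians ranged from 177.1 to 204.0 in intensity. The number of arrays limits the precision.

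Groups and replicate numbers came from the labels, and the methods give 3 mice a group. The comparison was a fit by lmFit and eBayes with no covariate, with Benjamini-Hochberg adjustment over all kept probes at a threshold of 0.05. A permutation test of 3 against 3 arrays cannot go below an exact p of 0.1 and was not used. Lists were described by counts and medians without a test. The members and lists were chosen with earlier results of these data known. By rule, the text names each member gene with a called probe and, whatever their result, Trp53, Mdm2, Ccng1, Bax, Bak1, Bcl2, Bcl2l1, Mcl1, Casp8, Casp9, Fas and Apaf1, then Cdkn1a and the 2 genes of smallest p of each pathway list. Some genes under this rule are not reported here, though counts include them. A change is given as a bound where no array of a group detected the probe, set against the lowest detected value of each array or the probe's own value, whichever was higher. Older symbols were matched through RefSeq synonyms (GRCm38.p6). Atr, Ing1, Tradd, Endog, Cd79a, Elane, Ahsp, Tnnt2 and Mki67 had no symbol on the array. The pipeline was tested on simulated data. It called 0 of 67 probes changed 1.5-fold, 27 of 64 changed 2-fold and 45 of 65 changed 4-fold. Of its 74 calls 2 were false. The simulation changed far fewer probes than were called here, so these shares do not carry over directly. A probe that did not pass the threshold was not shown to be unchanged. There were 17 alternatives, of other background corrections, normalizations, filters, variance models, a threshold of 0.01, a replicate block and each array left out. Python 3.11.15 was used for promoters and figures.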

Additional observations from a re-analysis of the deposited data

How the results depend on the processing

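The called members Trp53, Sesn2, Casp4 and Bcl2l12 kept their direction and their call in all 17 alternatives, and the other called members kept their direction. At an adjusted p under 0.01 the members called were 5, of which 2 higher, all probes called 1326 and other pathway probes called 9. With 1 array left out the ranges were 5 to 22 members called, 2 to 16 called higher, 3 to 6 called lower, 1652 to 4442 of all probes and 9 to 27 other pathway probes, with the lowest member count without hSRY-OFF replicate 2 and the highest without hSRY-ON replicate 1. The median change of members was 0.05 without background correction, 0.02 without the detection filter and 0.05 to 0.15 with 1 array left out, against 0.12, with the lowest value without hSRY-ON replicate 2. The replicate block gave 11 members called, 8 higher and 3 lower, 2655 of all probes, 17 other pathway probes and a median change of 0.12. With the block the calls of Mdm2 (adjusted p = 0.0844 and 0.0533), Ccng1 (0.0545), Gadd45g (0.0535) and Casp2 (0.0929) were lost (limma). The second Sesn1 probe was called in that fit. Deviations of same-numbered arrays had correlations of -0.11, 0.10 and -0.09, and those of other pairs ran from -0.09 to 0.16. With 3 arrays a group these values cannot decide whether the numbers pair the samples. Without background correction Sesn2, Casp4 and Bcl2l12 had 0.45, 0.76 and -0.51. Of the 43 members not called, 13 were called in at least 1 alternative. A fit with 5 arrays has fewer samples. Dim probes such as those of Birc4 lie too close to background to be tested.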
